A study of Dendrobium officinale with 6 samples.

Results

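The genes of auxin synthesis, transport and response were compared between protocorm-like bodies (PLBs) and leaves of the orchid Dendrobium officinale. They were chosen by a rule on annotation that uses no expression value, as the unigenes (assembled transcripts) whose first listed KEGG ortholog was K16903 (TAA1), K11816 (YUCCA), K13946 (AUX1/LAX), K13947 (PIN), K14485 (TIR1), K14484 (AUX/IAA), K14487 (GH3) or K14488 (SAUR). Unigenes tagged as auxin response factors were to be left out, and none of these carried that tag. The rule gave 168 unigenes of 157901 in all. Joined by the locus that their best nucleotide match names, they formed 82 genes of 93720 in all. RNA-Seq was done on 3 PLB libraries (A13, A14 and A15) and 3 leaf libraries (A10, A11 and A12). The PLBs were raised from seeds on half-strength MS medium, for which the labels give the auxins α-NAA (0.5 mg/L) and 2,4-D (1.5 to 2.0 mg/L), the cytokinin 6-BA (1.0 mg/L) and potato juice (100 g/L), under 16 h of light and 8 h of dark for 60 days. The leaves came from the original plants, and the paper describes plants kept in a greenhouse under a shorter daily light period. Tissue, culture, growing conditions and the auxins and cytokinin in the medium therefore cannot be told apart in any comparison below.

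Auxin (indole-3-acetic acid, IAA) is made from tryptophan in a short route: TAA aminotransferases form indole-3-pyruvate, and YUCCA monooxygenases turn it into IAA. AUX1/LAX proteins carry auxin into cells and PIN proteins carry it out. Inside the cell, auxin joins the F-box receptor TIR1 to AUX/IAA repressors, which are then degraded, and auxin response factors are released. AUX/IAA, GH3 and SAUR genes were first known as genes that auxin switches on. GH3 enzymes attach amino acids to auxin and so lower its free level. PLBs are small, embryo-like bodies from which orchid plantlets are propagated.

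Expected counts (estimated reads per unigene) summed to 17602153 to 18408442 per library. The 168 auxin unigenes took 0.2003% to 0.2678% of them in PLBs and 0.1265% to 0.1332% in leaves. The tissue labels were checked with light-harvesting proteins and the Rubisco small chain: 11 of 12 marker orthologs were found, in 87 unigenes, and their summed FPKM was 794.5 to 2042 in PLBs, lowest in A15, against 18000 to 21240 in leaves. The part of this difference in the results below was not tested. Fewer cells of a type and less RNA per cell cannot be told apart in such libraries. Levels are given as FPKM (fragments per kilobase of transcript, scaled to library depth), summed over the unigenes of a family or gene. Fold changes come from edgeR on summed counts with TMM scaling, which FPKM do not carry. Without TMM the median log2 fold change over all genes was 0.34 instead of 0.01, and over all orthologs 0.26 instead of 0.01, so changes are given relative to the TMM scale.

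All 8 family sums passed the test between tissues (adjusted p under 0.05), 3 of them higher in PLBs and 5 lower. Of 4103 orthologs tested, 75.8% passed, 37.2% higher and 38.6% lower in PLBs, so that passing as such says little of these families. Of the 8 sums by KEGG label, AUX/IAA showed the largest rise and SAUR the largest fall. However, with only unigenes whose other descriptions hold the family's name or domain, TAA1 was lower (-2.71) than SAUR (-2.14). AUX/IAA unigenes summed to 745.5, 910.7 and 1125 FPKM in PLB libraries A13, A14 and A15, against 248.7, 255 and 240 FPKM in leaf libraries A10, A11 and A12. Every PLB library stood above every leaf library, and the log2 fold change was 1.88 ± 0.16 (SE, edgeR adjusted p = 1.69e-05). GH3 unigenes summed to 61.1, 82.9 and 94.1 FPKM in PLBs and 26.3, 28.0 and 24.9 FPKM in leaves, a log2 fold change of 1.50 ± 0.16 (SE, edgeR adjusted p = 6.28e-05). PIN unigenes summed to 70.0, 58.7 and 71.2 FPKM in PLBs and 31.7, 37.9 and 30.1 FPKM in leaves, a log2 fold change of 0.98 ± 0.12 (SE, edgeR adjusted p = 0.000158). SAUR unigenes went the other way. They summed to 117.3, 142.1 and 82.1 FPKM in PLBs, against 375.2, 336.9 and 377.2 FPKM in leaves, and their log2 fold change was -1.52 ± 0.14 (SE, edgeR adjusted p = 2.55e-05).

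**Figure D1:**
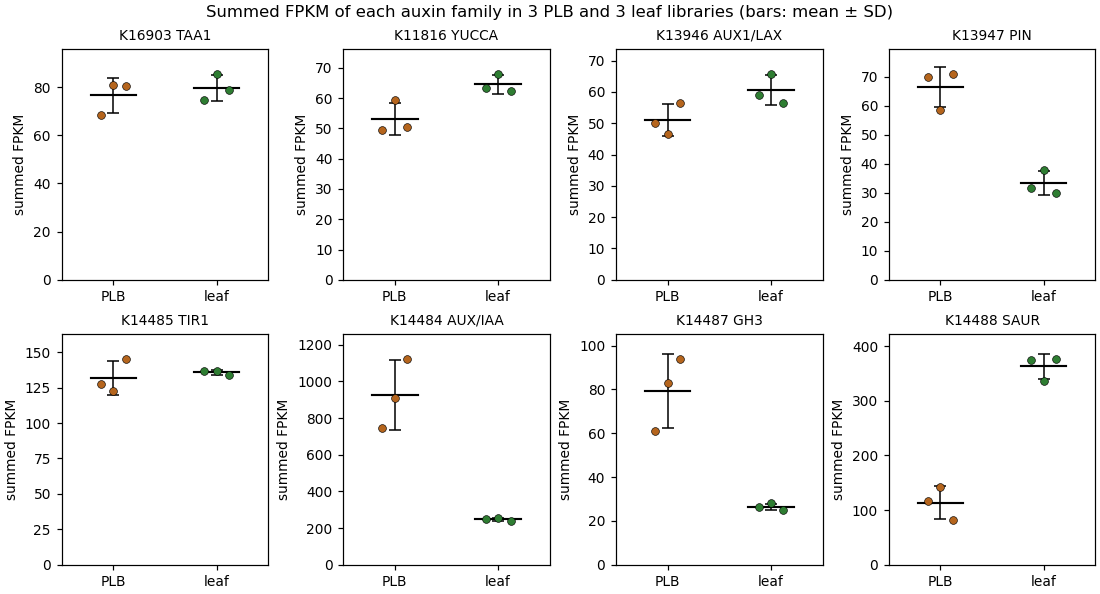
Summed FPKM of the 8 auxin families (vertical axes, each starting at 0) in 3 PLB and 3 leaf libraries, with points for libraries and bars for the mean ± SD. AUX/IAA, GH3 and PIN lie higher in PLBs and SAUR lower, while the TAA1 and TIR1 points of both tissues overlap.

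The other sums moved less. AUX1/LAX unigenes summed to 50.2, 46.5 and 56.3 FPKM in PLBs and 59.1, 65.8 and 56.6 FPKM in leaves, a log2 fold change of -0.55 ± 0.12 (SE, edgeR adjusted p = 0.00412). TIR1 unigenes summed to 127.6, 122.3 and 145.5 FPKM in PLBs and 136.9, 136.7 and 133.7 FPKM in leaves, so that the tissues overlapped on this scale. Their log2 fold change in counts was -0.35 ± 0.09 (SE, edgeR adjusted p = 0.00808). YUCCA unigenes summed to 49.4, 59.3 and 50.6 FPKM in PLBs and 63.3, 68.1 and 62.3 FPKM in leaves, a log2 fold change of -0.25 ± 0.08 (SE, edgeR adjusted p = 0.0213). TAA1 unigenes summed to 68.3, 80.8 and 80.4 FPKM in PLBs and 74.7, 85.6 and 78.8 FPKM in leaves, a log2 fold change of -0.29 ± 0.10 (SE, edgeR adjusted p = 0.0258). These 4 calls all ended when libraries were scaled by their size only, with log2 fold changes of -0.30 for AUX1/LAX, -0.11 for TIR1, -0.01 for YUCCA and -0.04 for TAA1. The call of TAA1 was also lost without A13 (log2 fold change -0.20), A11 (-0.23) or A12 (-0.29), and that of YUCCA without A13 (-0.21), A15 (-0.23), A10 (-0.27) or A11 (-0.21). For the summed FPKM themselves, an exact two-sided permutation test gave p = 0.7 for TAA1, p = 0.6 for TIR1 and, for each of the other 6 families, p = 0.1, the smallest that 3 against 3 libraries allow. How many of all orthologs reach this smallest value was not counted, so reaching it sets no family apart.

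A KEGG ortholog is one label among several, and the other descriptions of a unigene did not always name the same family. In the nucleotide, protein, SwissProt or Pfam descriptions, 136 of the 168 unigenes carried the family's name or domain and 32 did not. AUX1/LAX, PIN, TIR1 and GH3 unigenes all carried it. For GH3 the name looked for was amido synthetase, which also covers a jasmonic acid-amido synthetase. Unigene26036 (LOC110030827), with 85.9% of the GH3 total in leaves, was such an enzyme (JAR1) by nucleotide and protein match and GH3.10 by SwissProt. Of the 5 TAA1 unigenes only 1 carried the family's name. The other 4 were described as a proline-rich receptor-like kinase, an extensin-like protein, a helicase and an uncharacterized protein. Of the 13 YUCCA unigenes, 4 were described as TOM20, a receptor for protein import into mitochondria. Of 53 AUX/IAA unigenes, 4 were described as GDT1-like chloroplast proteins, and of 46 SAUR unigenes 20 were described as translin or uncharacterized proteins. The share of summed FPKM from such unigenes was 97.1% in PLBs and 84.7% in leaves for TAA1, and 68.3% in PLBs and 89.0% in leaves for YUCCA. It was 1.79% in PLBs and 12.1% in leaves for AUX/IAA, and 28.0% in PLBs and 12.2% in leaves for SAUR. Sums were also taken over only the unigenes that carried the name or domain. This list was trimmed after the values were known and so is given without a test. The TAA1 value was then -2.71 on the log2 scale and the SAUR value -2.14. The YUCCA value turned round to 1.39, from 17.2, 16.3 and 17.0 FPKM in PLBs against 6.80, 9.28 and 5.19 FPKM in leaves. AUX/IAA stood at 2.06 by the same count, which kept the ICE1-like LOC110112097 for its Pfam domain.

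**Figure D2:**
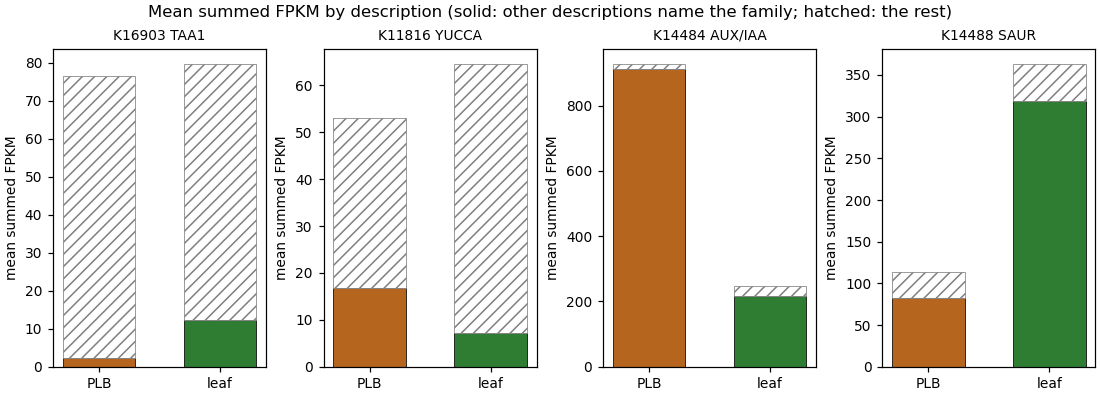
Mean summed FPKM (vertical axes) in PLBs and leaves for the 4 families that held unigenes without the family's name or domain. Bars are split into unigenes that carry the name or domain (solid) and the rest (hatched). The solid part is small for TAA1 and YUCCA, and for YUCCA it is higher in PLBs while the whole bar is lower.

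At the level of genes, 59 of the 82 passed the filter on low counts, and 17 of these were called higher and 20 lower in PLBs (1 log2 unit or more in size at an adjusted p no higher than 0.001). These are 28.8% and 33.9% of the genes tested. Over all 29627 genes tested, 39.6% were called, 17.6% higher and 21.9% lower. The median log2 fold change of the 59 genes was 0.26, against 0.01 over all genes. By family, 7 of 14 tested AUX/IAA genes were called higher and 2 lower, 3 of 5 GH3 genes higher and 1 lower, and none of 15 SAUR genes higher and 8 lower by edgeR. Of the SAUR genes, 2 were higher at an unadjusted p under 0.05, and 1 (LOC110110111) was called higher by DESeq2 and by limma at a pseudocount of 0.1, against 0 by limma at a pseudocount of 1. With libraries scaled by size only, 19 genes were called higher and 14 lower, so that the share of higher calls was 57.6% instead of 45.9%. Leaving out leaf library A12 left 10 genes called higher and 12 lower, and leaving out leaf library A11 left 11 higher and 14 lower.

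**Figure D3:**
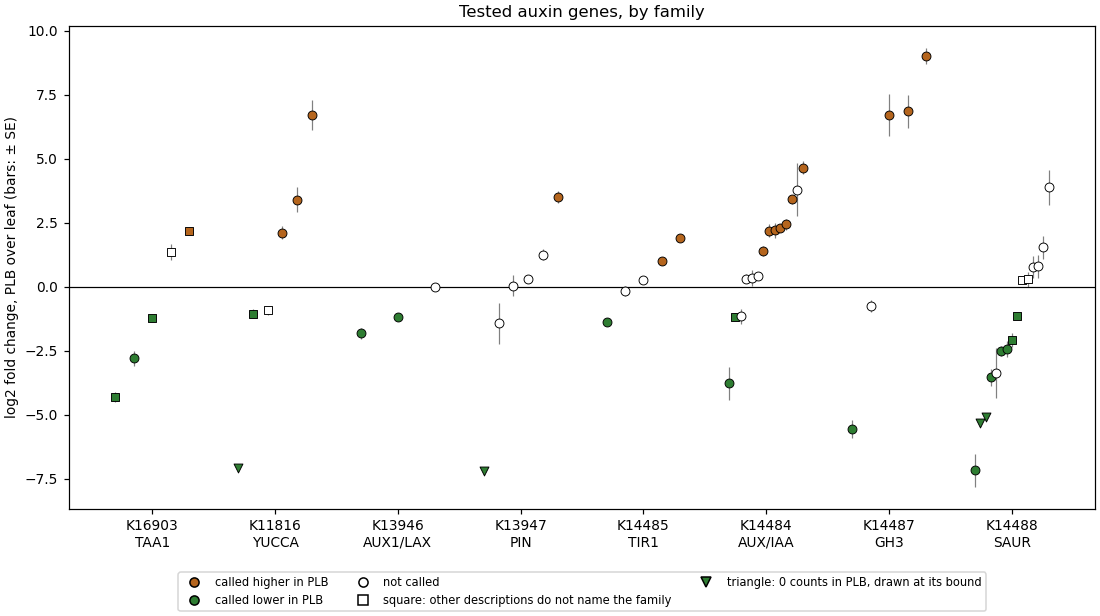
Log2 fold change of PLBs over leaves (vertical axis, bars ± SE) for the 59 tested auxin genes by family. Filled points are called genes, and squares are genes whose other descriptions hold neither the family's name nor its domain. Triangles lie at the bound for genes with 0 counts in PLBs. AUX/IAA and GH3 hold most of their called genes above 0, and every SAUR gene called by edgeR lies below 0.

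Synthesis genes differed in which copy was expressed. The locus LOC110100718, described as tryptophan aminotransferase-related protein 2-like and the only TAA1 gene with an aminotransferase description, had 3.46, 1.83 and 1.32 FPKM in PLBs and 12.5, 12.8 and 11.5 FPKM in leaves. It was lower in every PLB library than in any leaf library, with a log2 fold change of -2.80 ± 0.31 (SE, edgeR adjusted p = 6.92e-05). The other TAA1 loci split. LOC110038820 (CL11243.Contig2) and LOC110096003 (CL11243.Contig1) are contigs of the same assembly cluster and share a SwissProt match. Whether they are separate genes was not tested. LOC110038820, matched to a proline-rich receptor-like kinase PERK10 of the orchid Phalaenopsis equestris, rose to 50.4, 65.1 and 60.6 FPKM in PLBs, against 10.8, 11.1 and 8.99 FPKM in leaves (log2 fold change 2.19 ± 0.16 SE, edgeR adjusted p = 7.31e-06). The extensin-like LOC110096003 fell to 2.00, 2.76 and 1.88 FPKM in PLBs, against 33.4, 37.0 and 35.3 FPKM in leaves (log2 fold change -4.31 ± 0.19 SE, edgeR adjusted p = 8.59e-07). The helicase-like LOC110112458 had a log2 fold change of -1.22 ± 0.17 (SE, edgeR adjusted p = 0.000262), and its call was lost without A13 (adjusted p = 0.00124), A14 (0.00107), A11 (0.00174) or A12 (0.00233) and under size scaling (-0.88). The uncharacterized LOC110114379 averaged 1.88 ± 0.667 FPKM in PLBs and 0.577 ± 0.0982 FPKM in leaves (SD, n = 3 each) and was not called. The small change of the TAA1 sum was thus a total over loci with changes in both directions.

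Among YUCCA genes, 3 were called higher in PLBs and 1 lower, leaving aside the TOM20 loci. LOC110099647 (YUCCA2-like) had 10.0, 8.60 and 6.07 FPKM in PLBs and 1.55, 1.62 and 1.13 FPKM in leaves, a log2 fold change of 2.11 ± 0.25 (SE, edgeR adjusted p = 0.0001), and its call was lost without A12 (adjusted p = 0.00138). LOC110105935 (YUCCA2-like) had 434 counts in the 3 PLB libraries together and 3 in the leaf libraries, at 3.75, 5.23 and 7.37 FPKM in PLBs against 0, 0.04 and 0.08 FPKM in leaves. Its scaled ratio was 116 with a 95% exact counting interval of 39.5 to 565, and it was called (edgeR adjusted p = 2.38e-05). LOC110106097 (YUCCA9) had 2.00, 1.23 and 3.38 FPKM in PLBs and 0.20, 0.16 and 0.12 FPKM in leaves (log2 fold change 3.41 ± 0.50 SE, edgeR adjusted p = 0.000325), a call lost without A10 (adjusted p = 0.00249), A11 (0.00335) or A12 (0.00427). LOC110024792, matched to YUCCA10 of Phalaenopsis equestris, ran against these. It had no count in any PLB library and 5.05, 7.46 and 3.86 FPKM in leaves, which is at least 135-fold lower in PLBs when 3 counts over the PLB libraries are taken as the floor (edgeR adjusted p = 4.89e-05). The YUCCA-described locus of highest level was thus LOC110099647 in PLBs and LOC110024792 in leaves. The TOM20 loci LOC110037921 and LOC110105768 held the highest levels of the label, 18.28 ± 3.26 and 17.99 ± 3.26 FPKM in PLBs and 30.0 ± 0.911 and 27.5 ± 1.13 FPKM in leaves (SD, n = 3 each). The first was called lower in PLBs with a log2 fold change of -1.05, which was lost on leaving out any library but A14 (adjusted p from 0.00133 without A15 to 0.00365 without A12) and under size scaling (-0.73). The second, at -0.92, was called only without A14 (-1.15).

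Transport genes showed no common direction. LOC110094143 (auxin transporter-like protein 2), the most abundant AUX1/LAX gene, had 28.1, 31.2 and 39.9 FPKM in PLBs and 25.3, 29.5 and 27.8 FPKM in leaves. The tissues overlapped, and the log2 fold change was 0.00 ± 0.15 (SE, edgeR adjusted p = 0.996). Its contigs did not move together. CL5625.Contig4 was called lower, with 4, 8 and 19 counts in PLBs and 290, 286 and 290 in leaves (log2 fold change -5.09 ± 0.46 SE, edgeR adjusted p = 6.26e-05). The other tested contigs of this locus had log2 fold changes of 0.43 to 2.06 and were not called. LOC110108784 (also auxin transporter-like protein 2) fell to 8.74, 5.13 and 9.55 FPKM in PLBs, against 21.0, 24.2 and 18.95 FPKM in leaves (log2 fold change -1.81 ± 0.21 SE, edgeR adjusted p = 9.35e-05). None of its contigs was called alone. In PLBs, CL5625.Contig2 had 195, 82 and 0 counts and CL5625.Contig5 had 103, 93 and 332. LOC110094143 and LOC110108784 both hold contigs of assembly cluster CL5625, and whether they are separate genes was not tested. LOC110112324 (auxin transporter-like protein 3) had 6.65, 6.03 and 6.79 FPKM in PLBs and 12.8, 11.97 and 9.84 FPKM in leaves (log2 fold change -1.19 ± 0.14 SE, edgeR adjusted p = 0.000106), and with libraries scaled by size only it was no longer called, at -0.86. No contig of LOC110112324 was called alone either. LOC110104313 (auxin transporter-like protein 2), the lowest in level, was not tested and ran the other way, with 6.75, 4.15 and 0.12 FPKM in PLBs and 0, 0.12 and 0 FPKM in leaves.

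Among PIN genes, LOC110114140 (probable auxin efflux carrier component 1b) was the only one called higher in PLBs. It had 22.7, 13.99 and 16.3 FPKM in PLBs and 1.42, 1.44 and 0.89 FPKM in leaves, a log2 fold change of 3.52 ± 0.23 (SE, edgeR adjusted p = 5.17e-06), and it made up 26.5% of the PIN total in PLBs and 3.76% in leaves. LOC110110850 (component 4-like) had 20.4, 14.5 and 29.9 FPKM in PLBs and 6.57, 7.73 and 7.28 FPKM in leaves. Its log2 fold change of 1.25 ± 0.22 just missed the threshold (SE, edgeR adjusted p = 0.00102), and it was called without A14 (1.4, adjusted p = 0.000396) and by DESeq2. LOC110023119 (component 1c of Phalaenopsis equestris), the most abundant, had 20.0, 25.2 and 22.7 FPKM in PLBs and 13.6, 17.7 and 12.99 FPKM in leaves, with a log2 fold change of 0.30 ± 0.16 (SE, edgeR adjusted p = 0.126). A PIN gene was counted in leaves only. LOC110101999 (component 5-like) had no count in PLBs and 5.74, 5.34 and 5.90 FPKM in leaves, at least 148-fold lower in PLBs at the floor of 3 counts over the PLB libraries (edgeR adjusted p = 1.42e-05). PIN5 of Arabidopsis is known to sit in the endoplasmic reticulum and to move auxin within the cell. The remaining tested PIN genes, LOC110103023 (1c) and LOC110102000 (1-like), averaged 3.78 ± 1.83 and 0.590 ± 0.753 FPKM in PLBs and 2.78 ± 0.824 and 1.27 ± 0.220 FPKM in leaves (SD, n = 3 each), overlapped between tissues and were not called. LOC110095561 (component 4-like) had 4 counts in each tissue and was not tested.

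Receptor genes of the TIR1 label changed in both directions. LOC110101574 (transport inhibitor response 1-like protein) was the leading receptor gene of leaves, with 63.6% of the label's FPKM there and 31.6% in PLBs. It fell to 46.6, 35.6 and 42.6 FPKM in PLBs, against 86.3, 86.9 and 86.1 FPKM in leaves (log2 fold change -1.39 ± 0.11 SE, edgeR adjusted p = 1.45e-05). LOC110097068 has the same nucleotide name, and its protein match is the F-box protein FBX14. FBX14 is also the SwissProt match of CL5693.Contig1 and CL5693.Contig3 of LOC110101574, so these names do not separate the loci. LOC110097068 rose to 29.7, 34.2 and 32.7 FPKM in PLBs, against 6.33, 6.57 and 5.96 FPKM in leaves (log2 fold change 1.90 ± 0.13 SE, edgeR adjusted p = 5.64e-06). LOC110099875 had 11.4, 16.3 and 13.5 FPKM in PLBs and 5.52, 5.54 and 5.29 FPKM in leaves, at a log2 fold change of 1.01 ± 0.17 (SE, edgeR adjusted p = 0.000806). This last call lay at the threshold and was lost without any library other than A13 (log2 fold change 0.78 without A14, 1.04 without A15, 0.92 without A10, 0.95 without A11, 0.91 without A12) and under other filters on low values (0.96 and 0.99). LOC110113419 and LOC110097686 (TRANSPORT INHIBITOR RESPONSE 1-like) averaged 28.4 ± 9.24 and 15.9 ± 1.98 FPKM in PLBs and 25.5 ± 1.16 and 10.6 ± 0.201 FPKM in leaves (SD, n = 3 each) and were not called. Their log2 fold changes were -0.17 and 0.26.

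AUX/IAA repressors were the most abundant family in PLBs, and 1 locus led it. LOC110103881 (IAA21-like) had 424.9, 503.0 and 600.7 FPKM in PLBs and 87.2, 89.7 and 80.4 FPKM in leaves. It was highest in A15 and higher in each PLB library than in any leaf library, with a log2 fold change of 2.30 ± 0.17 (SE, edgeR adjusted p = 7.71e-06), and it made up 55.0% of the AUX/IAA total in PLBs and 34.6% in leaves. LOC110104519 (IAA2-like) showed the largest rise of the called repressors, to 45.8, 59.3 and 92.1 FPKM in PLBs, against 2.97, 2.37 and 2.45 FPKM in leaves (log2 fold change 4.66 ± 0.27 SE, edgeR adjusted p = 2.89e-06). LOC110101681 (IAA10-like) had 9.06, 9.02 and 7.59 FPKM in PLBs and 1.24, 1.41 and 1.13 FPKM in leaves (log2 fold change 2.44 ± 0.22 SE, edgeR adjusted p = 2.49e-05). Both contigs of LOC110112097 were described as the transcription factor ICE1-like with an AUX/IAA domain from Pfam, a mixed label. That locus had 26.1, 25.9 and 36.3 FPKM in PLBs and 2.14, 2.53 and 1.93 FPKM in leaves (log2 fold change 3.42 ± 0.17 SE, edgeR adjusted p = 1.48e-06). ICE1 is known in Arabidopsis for cold response and stomatal development, not as an auxin repressor.

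The other 3 called rises among repressors, named after their values were seen, were LOC110108598 (IAA1-like) at 1.39, LOC110095191 (IAA17-like) at 2.2 and LOC110099414 (auxin-induced protein 22D-like) at 2.19 on the log2 scale. They averaged 110.2 ± 26.3, 70.3 ± 33.4 and 33.7 ± 12.1 FPKM in PLBs and 42.0 ± 0.154, 12.2 ± 0.945 and 6.05 ± 0.245 FPKM in leaves (SD, n = 3 each), so that PLB libraries spread far more than leaf libraries. LOC110115613 (IAA4-like) was the only gene with a repressor's name called lower, at 0.44, 1.51 and 0.11 FPKM in PLBs, against 6.55, 7.07 and 8.42 FPKM in leaves (log2 fold change -3.77 ± 0.64 SE, edgeR adjusted p = 0.000751). Its call was lost with libraries scaled by size only and without A13 (adjusted p = 0.00336), A10 (0.00277), A11 (0.00359) or A12 (0.00554). The other called fall of the label was the GDT1-like LOC110100818, at -1.16, lost without A11 (adjusted p = 0.00135) or A12 (0.00157) and under size scaling (-0.84).

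GH3 genes changed places between tissues. LOC110114753, described as the amido synthetase GH3.1, had 53.8, 69.7 and 84.4 FPKM in PLBs and 0.10, 0.05 and 0.16 FPKM in leaves. It had 2072, 2704 and 3181 counts in PLB libraries and 4, 2 and 6 in leaf libraries, a log2 fold change of 9.02 ± 0.32 (SE, edgeR adjusted p = 3.68e-07), and took 87.3% of the GH3 total in PLBs and 0.392% in leaves. LOC110030827 took 85.9% of the leaf total and 0.748% of the PLB total. It fell to 0.46, 1.00 and 0.32 FPKM in PLBs, against 22.8, 24.0 and 21.2 FPKM in leaves (log2 fold change -5.55 ± 0.34 SE, edgeR adjusted p = 3.56e-06). Its nucleotide match was the jasmonic acid-amido synthetase JAR1 of Phalaenopsis equestris and its SwissProt match GH3.10. JAR1 of Arabidopsis is a member of the same family that acts on jasmonate, not auxin.

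The pair of loci described as GH3.8 was nearly absent from leaves. LOC110109191 had 1.87, 6.79 and 3.48 FPKM in PLBs and 0, 0.06 and 0.03 FPKM in leaves, a scaled ratio of 114 with a 95% exact counting interval of 38.8 to 556 (edgeR adjusted p = 0.000131). Its call was lost without A11 (adjusted p = 0.00105) or A12 (0.00205). LOC110103533 had 2.19, 2.67 and 2.12 FPKM in PLBs and 0, 0.04 and 0 FPKM in leaves, with 191 counts against 1 count, a ratio of 153 with an interval of 27.2 to 6090 (edgeR adjusted p = 3.27e-05). LOC110107838 (GH3.17-like) had 2.29, 2.69 and 3.81 FPKM in PLBs and 3.42, 3.76 and 3.51 FPKM in leaves and was not called, with a log2 fold change of -0.75 ± 0.22 (SE, edgeR adjusted p = 0.0136). These intervals, like the floors above, cover counting error only.

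**Figure D4:**
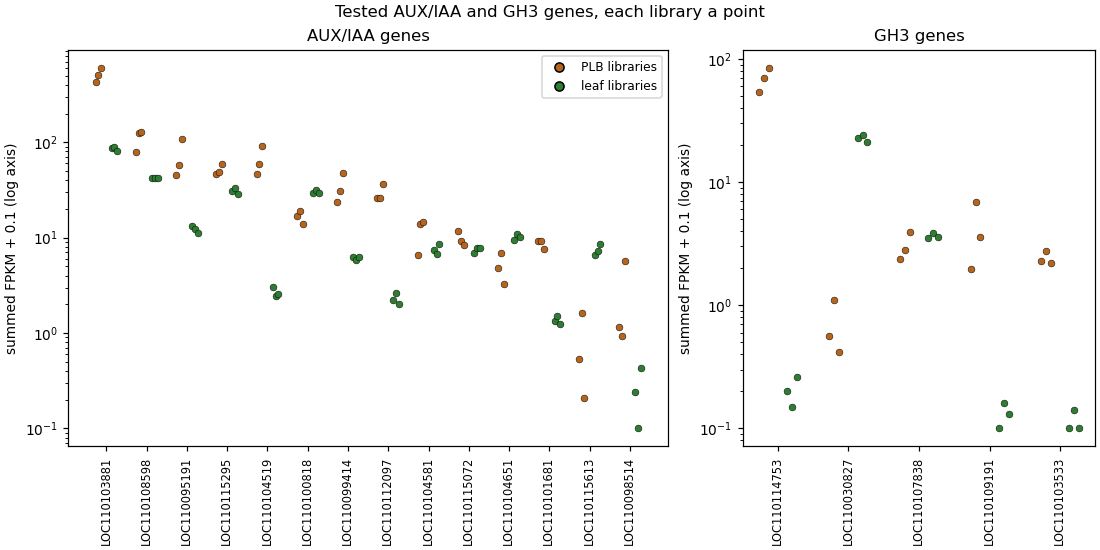
Summed FPKM + 0.1 on a log axis for the 14 tested AUX/IAA genes and the 5 tested GH3 genes, with 3 PLB points left of 3 leaf points for each gene. LOC110103881 is the highest repressor in both tissues, and LOC110114753 and LOC110030827 lead GH3 in PLBs and in leaves.

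SAUR genes, which code for small proteins that promote cell expansion, were lower in PLBs wherever edgeR called them. LOC110101706 (SAUR32-like) made up 51.5% of the label's FPKM in leaves and 18.1% in PLBs. It fell to 15.5, 31.9 and 14.3 FPKM in PLBs, against 195.8, 167.8 and 196.8 FPKM in leaves (log2 fold change -3.54 ± 0.33 SE, edgeR adjusted p = 2.83e-05). LOC110092327 (SAUR50-like) had 7, 0 and 0 counts in PLBs and 306, 325 and 223 in leaves, at 0.58, 0 and 0 FPKM against 24.7, 26.1 and 18.8 FPKM (log2 fold change -7.17 ± 0.64 SE, edgeR adjusted p = 2.39e-05). LOC110105305 (auxin-induced protein 15A-like) had no count in PLBs and 3.0, 3.17 and 3.23 FPKM in leaves, at least 39.9-fold lower in PLBs (edgeR adjusted p = 7.21e-05), a call lost without A12 (adjusted p = 0.00114). Unigene33533, whose protein match is auxin-induced protein X10A, had no count in PLBs and 3.36, 2.53 and 5.20 FPKM in leaves, at least 33.6-fold lower in PLBs (edgeR adjusted p = 0.00022), a call lost without A10 (adjusted p = 0.00124), A11 (0.00102) or A12 (0.00159). Of the 4 other called falls, named after their values were seen, LOC110106796 (SAUR50-like) and LOC110100254 (SAUR32-like) stood at -2.51 and -2.43, and the translin LOC110099356 and the uncharacterized LOC110111133 at -1.13 and -2.08 on the log2 scale.

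SAUR genes with higher levels in PLBs did not pass in edgeR. LOC110099285 (SAUR32-like), named after its values were seen, had 17.2, 30.8 and 9.26 FPKM in PLBs and 6.23, 5.62 and 4.11 FPKM in leaves, with a log2 fold change of 1.54 ± 0.44 (SE, edgeR adjusted p = 0.0125). LOC110110111 (SAUR50-like), likewise, had 4.03, 6.14 and 1.62 FPKM in PLBs and 0.35, 0.17 and 0.09 FPKM in leaves (log2 fold change 3.88 ± 0.70 SE, edgeR adjusted p = 0.00106). In both genes, PLB and leaf libraries did not overlap, and A15 was the lowest PLB library. A15 was also lowest of the PLB libraries in the SAUR sum and highest in the AUX/IAA and GH3 sums, and it held the lowest summed leaf markers. Of the 28 SAUR genes, 13 did not pass the filter on low counts.

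Contigs of one locus did not always move together. Of the 168 unigenes, 117 were tested, and 28 were called higher and 27 lower in PLBs, which is 23.9% and 23.1%. Over all 70383 unigenes tested, 39.7% were called, 16.8% higher and 22.9% lower. The auxin calls dropped to 18 higher without A14, to 15 higher and 14 lower without A10, to 15 higher and 11 lower without A11, and to 14 higher and 12 lower without A12. Among auxin genes with at least 2 tested contigs, 4 of 29 (13.8%) had contigs called in both directions, and among all 13177 such genes with a locus 24.6% did. These 4 were LOC110103881, LOC110115295 (IAA3-like), LOC110115072 (IAA11-like) and the uncharacterized LOC110111132 of the SAUR label, the last 3 of which were not called as genes. They and their contigs were named after the values were seen, apart from LOC110103881. As contigs were joined by locus, CL11243.Contig1 and CL11243.Contig2 of the TAA1 label, called in opposite directions, are not among them. Other assembly clusters were also split between loci. Examples are CL5625 (LOC110094143 and LOC110108784), CL8396 (LOC110023119 and LOC110103023) and CL14933 (LOC110103881 and LOC110108598). Whether such loci are separate genes was not tested.

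At LOC110115295, Unigene20331 (1365 bp) had 956, 921 and 1178 counts in PLBs and 56, 70 and 82 in leaves. Unigene30490 (1366 bp) of the same locus had 0, 0 and 3 counts in PLBs and 570, 599 and 493 in leaves. Both were called (adjusted p = 1.21e-05 and 1.04e-05, edgeR), and the locus as a whole stood at 46.9, 49.0 and 59.4 FPKM in PLBs against 30.6, 33.0 and 28.5 FPKM in leaves, with a log2 fold change of 0.41 ± 0.12 (SE). At LOC110115072, Unigene32668 (1372 bp) had 221, 177 and 159 counts in PLBs and 0, 4 and 0 in leaves, while Unigene32667 (1272 bp) had none in PLBs and 142, 159 and 154 in leaves. Each contig of these pairs was thus high in one tissue and low or at 0 in the other. At LOC110103881, Unigene25783 carried the rise, with 9909, 11871 and 13712 counts in PLBs and 1348, 1455 and 1084 in leaves, while Unigene83938 had 50, 64 and 88 counts in PLBs and 525, 516 and 550 in leaves. At the receptor LOC110101574, CL5693.Contig2 had 283, 234 and 259 counts in PLBs and 2521, 2583 and 2331 in leaves (log2 fold change -3.57 ± 0.13 SE, edgeR adjusted p = 3.46e-06). CL5693.Contig3 of that locus had 1679, 1283 and 1527 counts in PLBs and 1164, 1070 and 1190 in leaves and was not called, at 0.08 ± 0.14 (SE, edgeR adjusted p = 0.605). Whether such contigs are alleles, splice forms or close copies was not tested, and reads that fit several contigs were divided among them by the authors' counting.

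**Figure D5:**
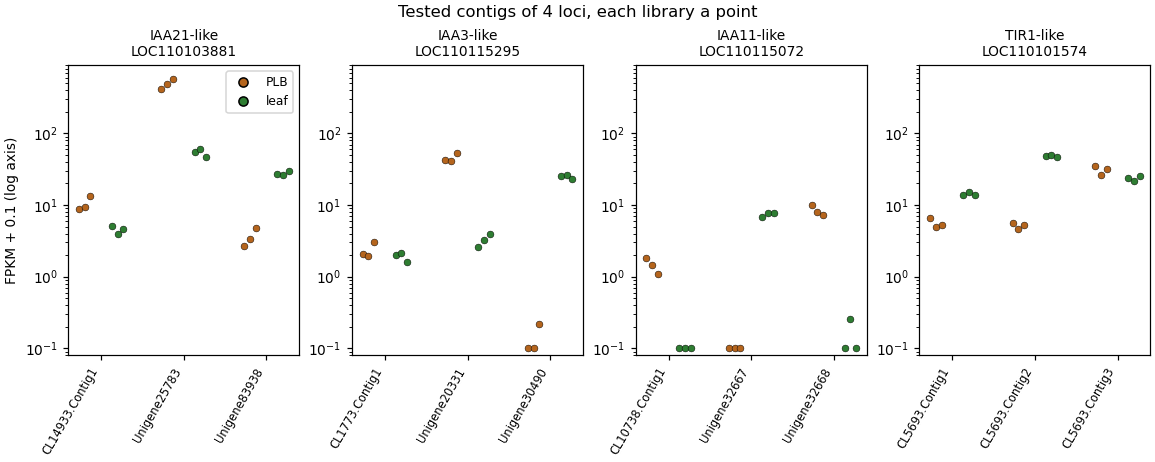
FPKM + 0.1 on a shared log axis for the tested contigs of 3 AUX/IAA loci and 1 TIR1 locus, with 3 PLB points left of 3 leaf points for each contig. At LOC110115072 one contig lies at the bottom in PLBs and the others at or near the bottom in leaves. At LOC110115295 Unigene30490 lies near the bottom in PLBs and Unigene20331 is at 2.48 to 3.78 FPKM in leaves.

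Other genes of auxin supply, storage, transport and signalling, found by their SwissProt names, were counted in the same fit. Of 95 tested, 22 were called higher and 24 lower in PLBs, which is 23.2% and 25.3%, near the 17.6% higher and 21.9% lower over all genes. The group of IAA storage and inactivation had 9 higher and 4 lower of 24. Of the 9 higher, 7 from 6 loci (LOC110109845 stands under 2 orthologs) were described as DAO, a dioxygenase that oxidizes IAA. Other entries described as DAO were not called, with log2 fold changes from -1.54 (LOC110115795) to 4.48 (LOC110095232). LOC110099025 (DAO) also stands under 2 orthologs, called at 3.16 under one and not called at 0.49 under the other. LOC110112108 (0.59 and 0.50) and LOC110115795 (-1.54 and 0.75) do so too and were called under neither. LOC110105848 (DAO) had 32.5, 47.2 and 38.0 FPKM in PLBs and 0.21, 0.21 and 0.42 FPKM in leaves (log2 fold change 6.77 ± 0.32 SE, edgeR adjusted p = 1.11e-06). Lower were 4 IAA-amino acid hydrolases, which free auxin from its conjugates, among them LOC110113882 (ILR1-like 1) with 26.8, 23.9 and 16.5 FPKM in PLBs and 70.8, 71.3 and 72.8 FPKM in leaves (log2 fold change -2.0 ± 0.18 SE, edgeR adjusted p = 2.62e-05). Hydrolases were also called higher, LOC110107985 (ILR1-like 7) at 1.37 and LOC110112813 (ILR1-like 3) at 1.07. Tryptophan supply had 3 higher and 6 lower of 18, and other routes to IAA 1 higher and 1 lower of 6. The group of other transport had 6 higher and 6 lower of 20. Of its 9 PIN-LIKES genes, 4 were called lower and 1 higher. Among the lower, LOC110099999 and LOC110111438 stood at 13.5 ± 7.27 and 14.9 ± 5.81 FPKM in PLBs, against 105.9 ± 0.993 and 100.1 ± 5.02 FPKM in leaves (SD, n = 3 each). LOC110093888 (PIN-LIKES 7) was higher, at 36.5 ± 7.57 FPKM in PLBs and 15.2 ± 0.301 FPKM in leaves (SD, n = 3 each). Of 5 WALLS ARE THIN 1 genes, 4 were called higher and 1 lower. LOC110096870 (WALLS ARE THIN 1, a vacuolar auxin transporter in Arabidopsis) rose to 241.4 ± 83.1 FPKM in PLBs, against 1.52 ± 0.375 FPKM in leaves, and LOC110099959 of the same name fell to 2.30 ± 1.11 FPKM in PLBs, against 10.1 ± 0.534 FPKM in leaves (SD, n = 3 each). PIN kinases had 1 higher of 9, LOC110095619 (WAG2) at 2.31, and none lower by edgeR, by an unadjusted p under 0.05, by DESeq2 or by limma. The group of TIR1 complex parts, corepressors and proteins named auxin-binding had 1 higher and 4 lower of 10. LOC110106066 (SKP1-like) and LOC110115232 (TOPLESS-RELATED PROTEIN 2) were lower, at -1.42 and -1.08 on the log2 scale. The rest of the lower genes, LOC110102268 and LOC110094206, were named auxin-binding proteins. Among the lower, LOC110094206 (named ABP20, an auxin-binding protein by name and a germin-like protein by family) had 0 FPKM in every PLB library and 516.2, 574.0 and 650.0 FPKM in leaves. The last group, auxin-repressed and dormancy-associated proteins, had 1 higher and 3 lower of 8, with LOC110110979 at 1110, 1624 and 1410 FPKM in PLBs and 230.7, 227.0 and 244.2 FPKM in leaves. The genes named in this paragraph were chosen after their values were seen.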

How the data were processed

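The RNA-Seq libraries were sequenced by the authors on the BGISEQ-500 platform, and reads were assembled with Trinity and Tgicl. The submitters' processing notes name Bowtie2 2.2.5, RSEM 1.2.8 and DESeq2, whereas the methods text names BLAST for mapping. The authors deposited expected counts (estimated counts, not whole numbers, since reads that fit several contigs are divided) and FPKM per library, and a series table with annotation. The fold change, p-value and q-value columns of that table hold the authors' own comparison of PLBs with leaves and were not used. Each FPKM column of that table matched a library.

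Counts were summed per first KEGG ortholog, per gene (ortholog and nucleotide-match locus, otherwise assembly cluster or unigene) or kept per unigene, then rounded. Loci carry the numbers of Dendrobium catenatum or Phalaenopsis equestris. All features were fitted together over the 6 libraries in edgeR 4.0.16 (R 4.3.3): filterByExpr, TMM, quasi-likelihood F test, Benjamini-Hochberg over 4103 orthologs (called at adjusted p under 0.05), 29627 genes or 70383 unigenes (adjusted p of at most 0.001 and log2 fold change of at least 1). The biological coefficient of variation was 0.124, 0.22 and 0.337. SE is the size of the change over the square root of F. A floor of 3 counts over a tissue's libraries gave bounds, and ratios with 1 to 3 counts have exact (Clopper-Pearson) 95% intervals. The paper states biological replicates, 3 per tissue. The fits were also run on simulated data in which few features changed, equally many each way. Far more features differ in these data, so that run cannot test the TMM scaling.

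Per family, the most abundant gene, up to 3 called genes each way with the largest change (FPKM of at least 1 in a tissue) and, with at most 8 tested genes, all of them were named. Members, lists and this rule were chosen with earlier results of these data known. Alternatives used DESeq2 1.42.0 and limma 3.58.1 (log2 FPKM, pseudocount 0.1 or 1). Tables used Python 3.11.15, pandas 2.3.3, numpy 2.4.6 and scipy 1.17.1. Metabolite and RT-qPCR data were not analysed.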

Additional observations from a re-analysis of the deposited data

How the results depend on the processing

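The sums of AUX/IAA, GH3, PIN and SAUR kept direction and call under every alternative that was tested. With only the unigenes that carry the family's name or domain, which has no test, SAUR moved to -2.14 and AUX/IAA stood at 2.06. With library size as the only scaling, the log2 fold changes of TAA1 (-0.04), YUCCA (-0.01), AUX1/LAX (-0.30) and TIR1 (-0.11) no longer passed. With limma on log2 FPKM at pseudocounts of 0.1 and 1, TAA1 (-0.06 and -0.06) and TIR1 (-0.05 and -0.05) did not pass either. With the ortholog anywhere in the list, TAA1 stood at -0.07. With only the unigene of most counts, TAA1 turned to 2.27 and AUX1/LAX to 0.51. With only unigenes that carry the name or domain, chosen after seeing the data, TAA1 moved to -2.71 and YUCCA turned to 1.39. Leaving out 1 library gave -0.33 to -0.20 for TAA1 and -0.31 to -0.21 for YUCCA, 10 to 19 genes higher and 12 to 21 lower, and 14 to 23 unigenes higher and 11 to 21 lower. Limma at 0.1 called 13 genes lower, no filter called 26 higher and assembly clusters in place of loci 28 higher, the clusters being more units than the loci. At an adjusted p under 0.05 with no minimum fold change, 52 unigenes were higher and 42 lower. For 40 named genes, 501 of 560 alternatives left the call as it was and none changed the direction of a called gene; genes under assembly clusters have other members and no such value. Keeping unigenes tagged as auxin response factors was not run, since no member had the tag. No paired analysis was possible because the labels give no replicate numbers. With 3 libraries per tissue, genes of few counts limit the precision: 23 of 82 genes were not tested.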

Other observations

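Some auxin genes of low level spread widely among PLB libraries. They were chosen after their values were seen. LOC110115373 (SAUR71-like) did not pass the filter on low counts. It had 4.77, 0.19 and 0.29 FPKM in PLB libraries A13, A14 and A15 and no count in leaves, at least 14.4-fold higher in PLBs over all libraries, with A13 the highest. LOC110098514 (IAA26-like), which was tested and not called, had 1.06, 0.82 and 5.65 FPKM in PLBs and 0.14, 0 and 0.33 FPKM in leaves, with A15 the highest.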
